A study of Mus musculus with 6 samples.

Results

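ETS genes encode transcription factors that share a DNA-binding domain for sites built around the letters GGAA. The 10 ETS genes described here were chosen by symbol: the 3 genes of the Pea3 group (Etv1, Etv4, Etv5), the ternary complex factor genes Elk1, Elk3 and Elk4, the founding pair Ets1 and Ets2, the repressor gene Etv6, and Gabpa, which encodes the DNA-binding subunit of GA-binding protein. All 10 were among the 23420 genes of the table, and all 10 passed the filter on low counts, which left 12257 genes for testing. A further 16 genes of the ETS family were found in the table and are given as the rest of the family, of which 4 passed the filter.

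RNA was sequenced from the lens transition zone of E14.5 mouse embryos, the band where epithelial cells stop dividing and begin to elongate as fibre cells. The 3 libraries labelled mutant came from embryos with Le-Cre, a null Etv4 genotype (Etv4-/-), and floxed alleles of both Etv5 (Etv5fl/fl) and Etv1 (Etv1 fl/fl). The 3 control libraries, titled wild type, came from embryos that also carried Le-Cre, with no ETS allele named. All embryos were of mixed background. The Le-Cre transgene expresses the recombinase Cre in lens-forming surface ectoderm, so Etv1 and Etv5 can be deleted only in its descendants, while Etv4 is null in every cell. Whether libraries stand for separate embryos is not stated in the labels, and p-values cover only the spread among these libraries. The question put to the data was whether other ETS genes differ when the Pea3 genes are targeted.

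In many tissues the Pea3 genes are switched on by fibroblast growth factor (FGF) through the kinase ERK, and their proteins carry that signal to target genes. Capicua, encoded by Cic, is a repressor that is known to hold the Pea3 genes down until ERK removes it. Ternary complex factors bind together with serum response factor (Srf) at immediate early genes such as Egr1 and Fos and are activated by ERK, and the product of Elk3 can repress these genes until it is phosphorylated. Ets1 and Ets2 are substrates of ERK as well. Ets1, Erg and Fli1 are also known as genes of blood vessel endothelium.

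Library totals ran between 13364742 and 17301168 counts, and 1 count stood for 0.0578 to 0.0748 CPM (counts scaled to a common library size) before TMM scaling. Crystallin genes took 19.5% to 32.2% of the counts in mutant libraries and 21.8% to 37.6% in control libraries. The Xist count was 711 and the Ddx3y count 2 in mutant library 1, whereas each of the other 5 libraries had at most 3 of Xist and at least 521 of Ddx3y. This library therefore came from tissue of the other sex than mutant libraries 2 and 3, which bears on the X-linked genes Elk1 and Elf4. Against the tissue label, 12 of 12 fibre markers and 5 of 5 lens epithelium markers passed the filter, while 8 markers of retina and pigment epithelium summed to 3.87 to 4.95 CPM in mutant libraries and 4.27 to 9.19 CPM in control libraries.

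Promoter sequence was looked up for the members in RefSeq (GRCm38.p6), which is another build than the mm9 named by the submitters, and 8 of the 10 members had an entry. The windows are the 250 bases before an annotated start. They were searched on both strands for the ETS site CCGGAA (reverse TTCCGG) and for TGAATG (reverse CATTCA), the core of the known Capicua site. The 2 motifs share no overlapping match in the windows printed. The letters TGAATG were settled after the Etv5 window had been read. The 3 windows that held a match are shown because they belong to the member with the highest level and to the members that differed least between the groups, with matches in capitals.
Etv5, inner of 2 starts, chr16:22438369-22438618, minus strand, TGAATG or CATTCA in capitals: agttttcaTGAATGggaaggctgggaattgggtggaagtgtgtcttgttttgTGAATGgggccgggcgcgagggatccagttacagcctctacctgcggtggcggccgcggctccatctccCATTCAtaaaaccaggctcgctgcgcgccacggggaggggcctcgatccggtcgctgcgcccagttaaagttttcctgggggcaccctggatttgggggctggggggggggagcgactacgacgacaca
Elk4, outermost of 3 starts, chr1:132007370-132007619, plus strand, CCGGAA in capitals: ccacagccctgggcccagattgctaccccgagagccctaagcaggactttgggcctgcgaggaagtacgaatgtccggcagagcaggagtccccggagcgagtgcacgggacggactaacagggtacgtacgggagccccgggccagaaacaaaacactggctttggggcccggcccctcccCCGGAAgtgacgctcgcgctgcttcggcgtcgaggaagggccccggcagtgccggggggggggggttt
Gabpa, chr16:84834874-84835123, plus strand, TTCCGG in capitals: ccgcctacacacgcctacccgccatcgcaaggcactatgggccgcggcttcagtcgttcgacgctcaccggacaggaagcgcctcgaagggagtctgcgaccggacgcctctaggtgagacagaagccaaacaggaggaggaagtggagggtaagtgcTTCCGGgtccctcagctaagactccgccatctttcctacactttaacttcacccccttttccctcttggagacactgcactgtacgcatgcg

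The Etv5 window held 3 matches to TGAATG, a number reached by 43 of 32851 promoter windows of the same length (0.131%). None of its matches was part of the octamers TGAATGAA or TGAATGGA, which occurred in 1.08% and 1.01% of all windows. At least 1 match to TGAATG stood in 10.9% of all windows and in 1 of the 12 windows of the members. The window of the outer Etv5 start held 0. Since the letters were settled after the Etv5 window had been read, these shares are no measure of enrichment. The ETS site stood in 12% of all windows and in 2 of the 12 windows of the members, those of Elk4 and Gabpa. A match to these letters is a description of the sequence and does not show that a protein binds there.

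Of the 10 members, 1 fell and none rose past the threshold (adjusted p of 0.05 by Benjamini and Hochberg, quasi-likelihood test of edgeR), where 2.22% of all 12257 tested genes were called (1.08% lower and 1.14% higher). The member that fell was Etv1. Etv5 was lower by a similar margin and missed the threshold by a small amount. None of the 7 members outside the Pea3 group passed in edgeR, DESeq2 or limma voom, and 2 of them, Elk1 and Elk3, had an unadjusted p under 0.05 in edgeR, as did 16.2% of all tested genes. The groups did not overlap for 5 of the 10 members, namely Etv1 and Etv5 (lower) and Etv4, Elk1 and Elk3 (higher), against 22.7% of all tested genes (11.3% lower and 11.4% higher). The median log2 fold change, mutant over control, was 0.21 over the 10 members, 0.29 over the 7 outside the Pea3 group and 0.00 over all tested genes.

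**Figure D1:**
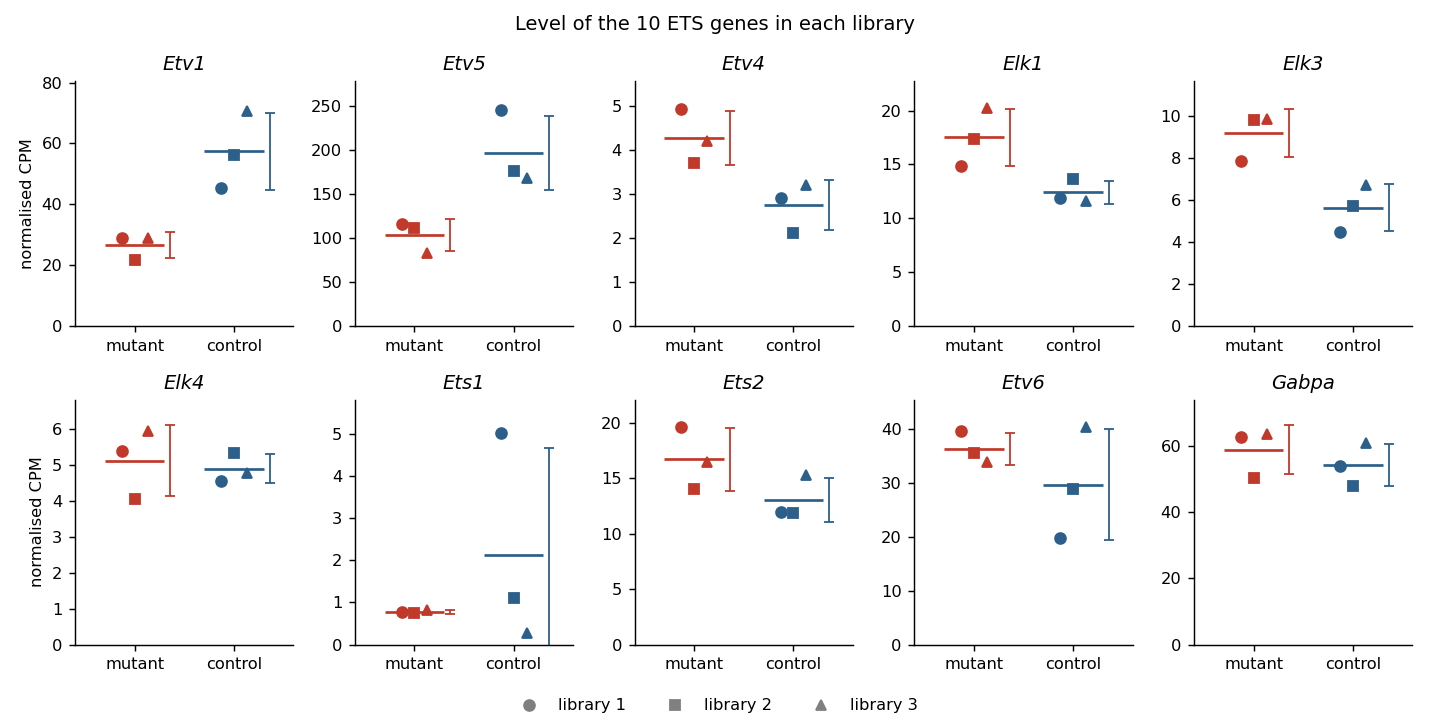
Normalised CPM (y axes, each from 0) of the 10 ETS genes in the 3 mutant (red, left) and 3 control (blue, right) libraries. Points are libraries, marked by library number, horizontal lines are group means and bars are 1 SD, which for Ets1 controls runs below 0 and is not drawn there. Etv1 and Etv5 are lower in every mutant library than in any control library, and control library 1 stands apart for Ets1.

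Among the Pea3 genes, Etv1, which encodes the factor also called ER81, had 29.0, 21.6 and 28.9 CPM in mutant libraries 1, 2 and 3, against 45.4, 56.1 and 70.7 CPM in control libraries 1, 2 and 3. The highest mutant library lay below the lowest control library. The group means were 26.5 CPM ± 4.25 in mutant and 57.4 CPM ± 12.7 in control libraries (SD, n = 3 each). This is a log2 fold change of -1.11 ± 0.21 (SE; 95% interval -1.58 to -0.64; adjusted p in edgeR = 0.0319), or 0.462 of the control level. The call was lost without mutant library 1 (-1.18; edgeR adjusted p = 0.116), without mutant library 3 (-1.18; 0.117), without control library 2 (-1.13; 0.125) and without control library 3 (-0.94; 0.0929).

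Etv5, which encodes the factor also called ERM, had 116.2, 111.2 and 82.9 CPM in mutant libraries 1, 2 and 3, against 245.5, 176.8 and 168.2 CPM in control libraries 1, 2 and 3. Here too the groups did not overlap, and control library 1 was the highest. The log2 fold change came to -0.93 ± 0.19 (SE; 95% interval -1.37 to -0.49; edgeR adjusted p = 0.0503), 0.526 of the control level. It passed with DESeq2 (-0.93; adjusted p = 0.00123) and with limma voom (-0.82; adjusted p = 0.023), and without control library 1 it stood at -0.74 (edgeR adjusted p = 0.0939). The intervals of Etv1 and Etv5 cover much of each other, and whether these genes differ in fold change was not tested.

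Etv4, the gene of the factor Pea3 itself, was the scarcest of the 3, with 45 to 97 counts in mutant and 35 to 58 counts in control libraries. It stood at 4.92, 3.71 and 4.20 CPM in mutant libraries 1, 2 and 3, against 2.92, 2.13 and 3.21 CPM in control libraries 1, 2 and 3. All mutant libraries lay above all control libraries, although the allele is labelled null. The log2 fold change was 0.64 ± 0.36 (SE; 95% interval -0.18 to 1.45; edgeR adjusted p = 0.427), and the difference did not pass. Gene counts include any exons that a deletion spares, and which exons were deleted is not stated in the labels. The counts of the Pea3 genes therefore do not by themselves check the genotypes.

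In bulk tissue fewer cells of a type and less RNA per cell cannot be told apart. Of 12 lens fibre markers, 2 (Bfsp2 and Cdkn1c) fell in edgeR and 10 did not pass, while 8 had an unadjusted p under 0.05. DESeq2 called 4 of the 12 and limma voom 5. A negative log2 fold change was found for 11, the exception being Sox1 at 0.29. The summed level of the 12 was 6503 to 11255 CPM in mutant and 13282 to 20208 CPM in control libraries. None of 5 lens epithelium markers passed in edgeR, DESeq2 or limma voom (0 with an unadjusted p under 0.05 in edgeR), and their sums overlapped, at 374.6 to 613.3 CPM in mutant and 326.5 to 868.0 CPM in control libraries. Of 12 genes of S phase, 1 (Mcm2) rose in edgeR, and 9 had an unadjusted p under 0.05. All 12 had a positive log2 fold change, with a median of 1.11. DESeq2 and limma voom called 5 and 4, and the sums were 960.7 to 1739 CPM in mutant and 354.0 to 876.0 CPM in control libraries. Over all 12257 tested genes, edgeR called 1.08% lower and 1.14% higher, and 16.2% had an unadjusted p under 0.05. DESeq2 called 821 and limma voom 808. The part of fibre, epithelium and S phase genes in the values of Etv1 and Etv5 was not tested. With the crystallin share of each library as a further term, Etv1 and Etv5 both passed, at log2 fold changes of -1.31 and -0.76 (edgeR adjusted p = 0.000294 and 0.0127). That term raised the calls over all tested genes from 272 to 798. All 16 crystallin genes had negative log2 fold changes, as did 6099 of the 12257 tested genes. Of the 16, 1 passed in edgeR, and the groups did not overlap for 4, against 22.7% of all tested genes. Whether the crystallin share itself depends on genotype was not tested.

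**Figure D2:**
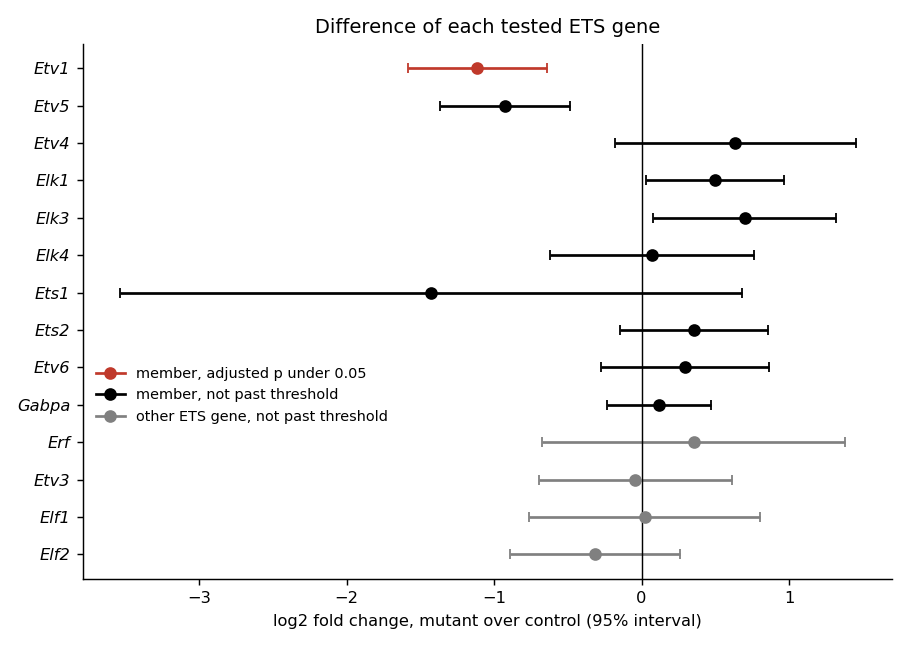
Log2 fold change, mutant over control, of the 14 tested ETS genes (x axis), with 95% intervals from edgeR's fit over all genes; red marks the gene past the threshold, black the other members and grey the other ETS genes. Etv1 at -1.11 and Etv5 at -0.93 lie left of 0 with their whole intervals, and Ets1 has the widest interval, -3.54 to 0.68.

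The ternary complex factor genes gave small positive differences or none. Elk3, whose product is also called Net, had 7.87, 9.81 and 9.87 CPM in mutant libraries 1, 2 and 3, against 4.48, 5.71 and 6.71 CPM in control libraries 1, 2 and 3. The groups did not overlap, with a margin of about 1 CPM between the lowest mutant and the highest control library. Its log2 fold change of 0.70 ± 0.27 had a 95% interval of 0.08 to 1.32 and an unadjusted p of 0.0311, and did not pass (SE; edgeR adjusted p = 0.251). Over the 15 alternatives it lay between 0.56 and 0.84, with adjusted p from 0.173 to 0.526.

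Elk1, which lies on the X chromosome and encodes the best known ERK substrate of the group, had 14.9, 17.4 and 20.2 CPM in mutant libraries 1, 2 and 3, against 11.9, 13.7 and 11.6 CPM in control libraries 1, 2 and 3. Mutant library 1, the library with Xist, was the lowest of the mutant libraries. The log2 fold change was 0.50 ± 0.21 (SE; 95% interval 0.03 to 0.97; edgeR adjusted p = 0.284), and without mutant library 1 it was 0.60 (edgeR adjusted p = 0.372). Elk4, also called Sap1, ranged from 4.04 to 5.94 CPM in mutant and from 4.56 to 5.35 CPM in control libraries. The log2 fold change came to 0.07 ± 0.30 (SE; 95% interval -0.62 to 0.76; edgeR adjusted p = 0.934), and the sign turned without mutant library 3. Part of its exons overlaps Mfsd4a on the other strand and Gm29103 on the same strand. The kit does not mark strand, so reads there cannot be told apart.

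Ets2 averaged 16.7 CPM ± 2.82 in mutant and 13.03 CPM ± 1.96 in control libraries (SD, n = 3 each), a log2 fold change of 0.36 ± 0.22 (SE; 95% interval -0.14 to 0.86; adjusted p in edgeR = 0.468). Mutant library 2, at 14.0 CPM, lay below control library 3, at 15.3 CPM. Its partner Ets1 was near the lower limit of the assay in 5 of the 6 libraries. It had 0.761, 0.742 and 0.818 CPM in mutant libraries 1, 2 and 3 (15, 9 and 15 counts), against 5.01, 1.09 and 0.277 CPM in control libraries 1, 2 and 3 (67, 18 and 5 counts). The mutant libraries lay within the range of the controls, which span 3.68 on the log2 scale. On the log2 scale the difference was -1.43 ± 0.92, which did not pass (SE; 95% interval -3.54 to 0.68; edgeR adjusted p = 0.493), and it was 0.18 without control library 1.

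Control library 1 also stood apart for some endothelial genes. Of the 12 endothelial markers, 8 were highest in this library, among them, named after their values were seen, Cdh5 and Tie1. Cdh5, which encodes the adhesion protein VE-cadherin, had 0.0508, 0.0825 and 0.327 CPM in mutant libraries 1, 2 and 3, against 2.54, 0.121 and 0.0554 CPM in control libraries 1, 2 and 3. Tie1, the gene of an endothelial receptor, had 0, 0 and 0.382 CPM in mutant libraries 1, 2 and 3, against 2.84, 0 and 0 CPM in control libraries 1, 2 and 3. All of these values are low outside control library 1. Fli1, an ETS gene of endothelium, had 7, 0 and 7 counts in mutant libraries 1, 2 and 3, against 27, 0 and 0 counts in control libraries 1, 2 and 3. Summed over the whole list, the markers gave 67.5 to 102.3 CPM in mutant and 65.2 to 87.2 CPM in control libraries, most of it from Tek and Egfl7. Without those genes, left out after their values were seen, the sums were 2.94, 2.89 and 7.09 CPM in mutant libraries 1, 2 and 3, against 26.9, 2.92 and 4.66 CPM in control libraries 1, 2 and 3. None of the 7 markers tested passed in edgeR, DESeq2 or limma voom, and 0 had an unadjusted p under 0.05 in edgeR. Leukocyte markers summed to 4.45 to 31.2 CPM in mutant and 2.11 to 10.7 CPM in control libraries. Of 6 tested, none passed in edgeR or DESeq2, and 1 (Csf1r) passed in limma voom. An unadjusted p under 0.05 in edgeR was found for 3, and for 16.2% of all tested genes. The part of either cell type in the Ets1 values was not tested.

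**Figure D3:**
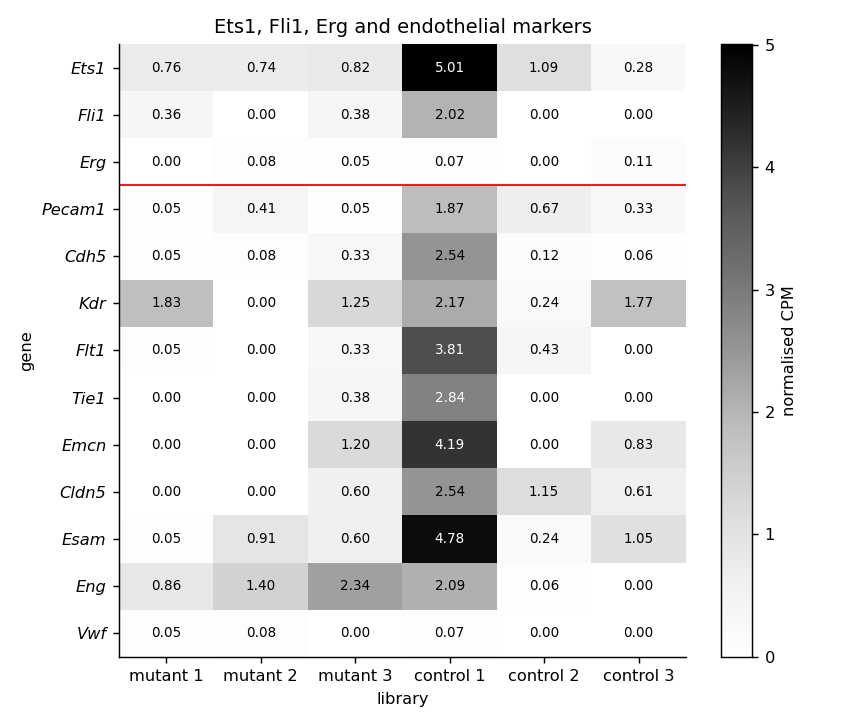
Normalised CPM (shade and printed value) of Ets1, Fli1 and Erg, above the red line, and of 10 endothelial markers, below it, in each library, mutant libraries left of control libraries. The listed markers Tek and Egfl7, left out after their values were seen, were highest in mutant library 3. Ets1 at 5.01 CPM and Fli1 at 2.02 CPM were highest in control library 1, as were 8 of the 10 markers shown.

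Etv6, which encodes a transcriptional repressor also called Tel, had 39.6, 35.6 and 33.8 CPM in mutant libraries 1, 2 and 3, against 19.7, 28.9 and 40.3 CPM in control libraries 1, 2 and 3. The mutant libraries lay within the control range, which was wide: the mutant libraries span 0.23 and the control libraries 1.03 on the log2 scale. The log2 fold change came to 0.29 ± 0.25 (SE; 95% interval -0.28 to 0.86; edgeR adjusted p = 0.605), 0.07 without control library 1 and 0.58 without control library 3. Gabpa had 62.7, 50.3 and 63.6 CPM in mutant libraries 1, 2 and 3, against 54.0, 47.9 and 60.8 CPM in control libraries 1, 2 and 3. The values of the groups interleave, and the log2 fold change was 0.12 ± 0.15 (SE; 95% interval -0.23 to 0.47; edgeR adjusted p = 0.756). Exons of Gabpa overlap Atp5j on the other strand, so some of its reads may belong to that gene, and how many was not counted. Exons of Etv6, Elf1 and Elf2 also overlap a gene on the other strand.

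These intervals set how large a difference the libraries allow. For 6 of the 7 members outside the Pea3 group the 95% interval lay wholly above the value of Etv1, with the lowest bound at -0.62 (Elk4), while that of Ets1 held it. In the other direction the highest bound was 1.32 (Elk3). For 5 of the 7 the interval included 0. The intervals are not adjusted for the number of genes. The value of Etv1 was itself an estimate, with an interval of -1.58 to -0.64, and no difference between Etv1 and these members was tested.

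Levels were compared between genes only per length, as CPM per kb of annotated exon. For the Pea3 genes in mutant libraries, the reads may come from exons that a deletion spares, while the length is that of all exons. Etv5 was the highest ETS gene in both groups, at 25.7 ± 4.46 CPM per kb in mutant and 48.9 ± 10.5 CPM per kb in control libraries (SD, n = 3 each). Gabpa came next, at 11.6 ± 1.46 CPM per kb in mutant and 10.7 ± 1.27 CPM per kb in control libraries. Etv1 ranked 7 in mutant libraries, at 3.68 ± 0.590 CPM per kb, and ranked 3 in control libraries, at 7.97 ± 1.77 CPM per kb. In control libraries the ranges of Gabpa and Etv1 overlapped, as did those of Etv1 and Etv6, although within each of the 3 control libraries Gabpa was above Etv1 and Etv1 above Etv6. In mutant libraries Etv6, at 6.37 ± 0.524 CPM per kb, came after Gabpa, and Elk1, Ets2, Elf2 and Etv1 followed it with each overlapping the next. Etv4 stood at 1.78 ± 0.254 CPM per kb in mutant and 1.15 ± 0.234 CPM per kb in control libraries, which overlapped with its neighbours Elk3 and Elf1 in mutant and Elk3 and Elk4 in control libraries.

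Added up over the 26 ETS genes found, the family gave 75.9, 70.5 and 66.5 CPM per kb in mutant libraries 1, 2 and 3, against 100.7, 85.2 and 93.7 CPM per kb in control libraries 1, 2 and 3. The 3 Pea3 genes made up 46.0%, 45.6% and 39.6% of this sum in mutant libraries and 68.0%, 61.7% and 56.4% in control libraries. Etv5 by itself held 36.04% ± 4.45 in mutant and 52.2% ± 8.0 in control libraries (SD, n = 3 each). The 7 other members summed to 31.7, 28.0 and 32.1 CPM per kb in mutant libraries 1, 2 and 3, against 23.5, 24.1 and 28.9 CPM per kb in control libraries 1, 2 and 3. For these sums no test was made, since the genes were chosen with results known. In both groups the Pea3 genes, chiefly Etv5, gave the greater part of the reads per kb of the 10 members, except in mutant library 3. There they summed to 26.3 CPM per kb and the other 7 to 32.1. In mutant libraries the Pea3 sums count any exons that a deletion spares, so they do not measure intact transcripts.

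**Figure D4:**
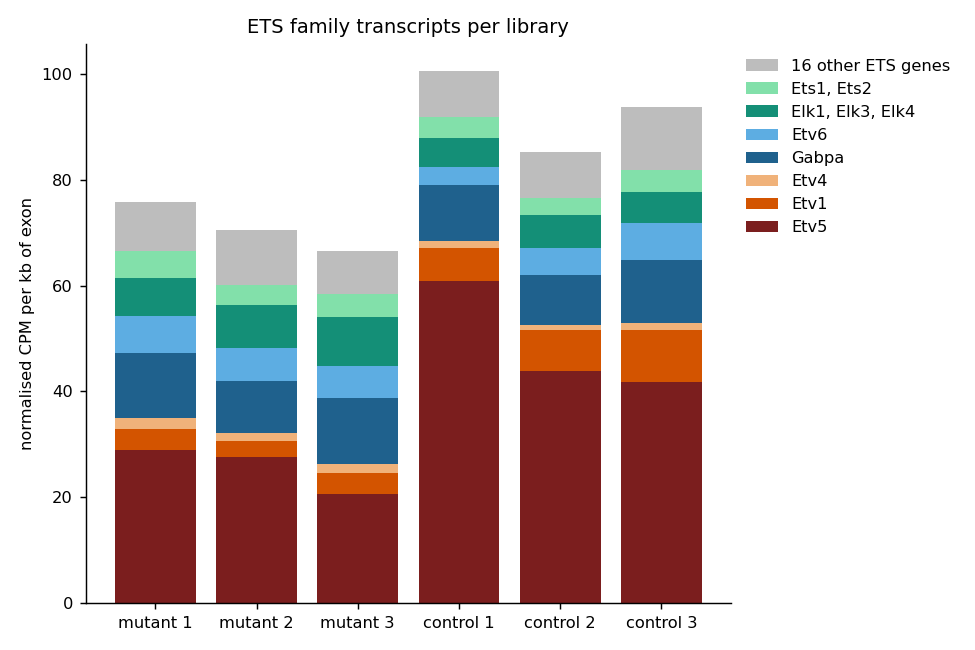
Stacked bars of normalised CPM per kb of exon (y axis) for the 26 ETS genes in each library, mutant libraries left of control libraries; colours mark single genes or groups of genes. The bars reach 66.5 to 75.9 in mutant and 85.2 to 100.7 in control libraries, and the Etv5 segment is 20.6 to 28.9 in mutant and 41.8 to 60.9 in control libraries. In mutant libraries the Etv1, Etv4 and Etv5 segments count any exons that a deletion spares.

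Outside the members, none of the 4 tested ETS genes passed in edgeR, DESeq2 or limma voom, and 0 had an unadjusted p under 0.05. Elf2, the most abundant of them, averaged 31.3 CPM ± 9.27 in mutant and 39.0 CPM ± 7.44 in control libraries (SD, n = 3 each; log2 fold change -0.32 ± 0.25 (SE); edgeR adjusted p = 0.577). Elf1, like Elf2 a gene of the ELF group, had a log2 fold change of 0.02 ± 0.34. The repressor genes Etv3 and Erf had log2 fold changes of -0.04 ± 0.29 and 0.35 ± 0.45 (SE). The signs of Etv3 and Elf1 turned when single libraries were left out. The other 12 genes were too low to test: Spic, a gene of red pulp macrophages, had 0 counts in all 6 libraries, and Erg had at most 2 counts in any library. A count of 0 allows up to 0.224 CPM before TMM scaling in the shallowest library (3 counts). Spdef, named after its values were seen, had 16, 24 and 6 counts in mutant libraries 1, 2 and 3, against 3, 0 and 0 counts in control libraries 1, 2 and 3. The ratio of its summed counts was 14.6 (95% exact interval 4.70 to 73.6, for counting error only). In a fit with no filter its log2 fold change was 3.78 ± 1.42 and did not pass (SE; edgeR adjusted p = 0.262).

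Partners and regulators of ETS factors were tested as a list of 16 genes, none of which passed in edgeR, DESeq2 or limma voom. Of the 16, 2 had an unadjusted p under 0.05 in edgeR, as did 16.2% of all tested genes. The median log2 fold change of the 16 genes was 0.10. Of these, Mapk3, the gene of ERK1, averaged 67.0 CPM ± 5.63 in mutant and 48.6 CPM ± 2.7 in control libraries (SD, n = 3 each), a log2 fold change of 0.47 ± 0.13 (SE; adjusted p in edgeR = 0.123). Cic ranged from 6.05 to 12.9 CPM in mutant and from 7.55 to 13.4 CPM in control libraries, with a log2 fold change of -0.42 ± 0.37 (SE; adjusted p in edgeR = 0.612); it was named for the promoter motif.

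Of 7 tested target genes of the ternary complex factors, Srf among them, 3 rose in edgeR (DESeq2 and limma voom called 4): Egr1, Fos and Junb, with log2 fold changes of 3.98, 3.43 and 1.63. Over all 12257 tested genes, edgeR called 1.14% higher, DESeq2 called 821 and limma voom 808 in either direction. The listed targets Egr2, Egr3 and Fosb were too low to test. Srf, shown for its role beside the ternary complex factors, had 16.2 to 23.4 CPM in mutant and 15.7 to 19.98 CPM in control libraries and a log2 fold change of 0.14 ± 0.21 (SE; adjusted p in edgeR = 0.798). Elk1, Elk3, Elk4 and Srf had log2 fold changes between 0.07 and 0.70 without passing. Of the other listed targets that did not pass in edgeR, Ier2 had a log2 fold change of 0.98 and was called by DESeq2 and limma voom. Mcl1 had a log2 fold change of -0.15 and Nr4a1 one of -0.96, the last with at most 1.74 CPM in mutant and at least 1.76 CPM in control libraries. The Junb call was lost without mutant library 1 or 3 or control library 2 or 3, with values from 1.52 to 1.71 on the log2 scale. Of 8 genes known as targets of GA-binding protein, which serve mitochondria, none passed in edgeR, DESeq2 or limma voom and 0 had an unadjusted p under 0.05. Their median log2 fold change was -0.13; Tfam, the gene of the mitochondrial DNA-packaging factor, had one of 0.17 ± 0.17, and the cytochrome oxidase genes Cox5b and Cox6a1 had ones of -0.14 ± 0.13 and -0.13 ± 0.14 (SE).

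The genes most alike in pattern were sought for the 3 members of lowest p, Etv1, Etv5 and Elk3, as the smallest root mean square difference of centred log2 CPM over the 6 libraries, among 9332 genes with a mean of at least 5 CPM, predicted genes aside. For Etv1 these were Ccdc93, Rftn1 and Sh3bp5 (0.0863, 0.0976 and 0.108 on the log2 scale). For Etv5 they were Megf9, Ccdc149 and Il11ra1 (0.0965, 0.115 and 0.115). For Elk3 they were Agpat2, B4galt4 and Tmem53 (0.0762, 0.0998 and 0.110). Of these, Megf9 and Rftn1 passed the threshold, with log2 fold changes of -0.83 and -1.18 (edgeR adjusted p = 0.0467 and 0.043). Both were picked for closeness to Etv5 or Etv1 in the same libraries, so their calls are no separate support.

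In the authors' deposited table, the log2 fold changes of the 10 members had the same signs as here. Etv1 (-1.09; adjusted p = 0.00018) and Etv5 (-0.91; adjusted p = 0.00135) are past 0.05 in the authors' deposited table, and the adjusted p of the other 8 members lie between 0.215 (Elk3) and 0.962 (Elk4).

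**Figure D5:**
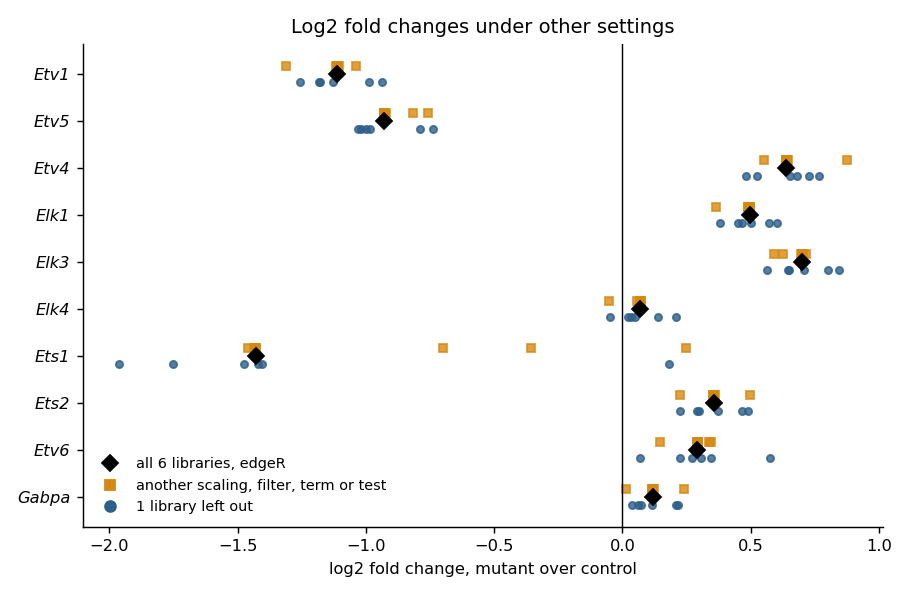
Log2 fold changes, mutant over control (x axis), of the 10 members with all 6 libraries (black diamonds), under another scaling, filter, term or test (orange squares) and with 1 library left out (blue circles). Etv1 stays between -1.31 and -0.94 and Etv5 between -1.03 and -0.74, whereas Ets1 runs from -1.96 to 0.25.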

How the data were processed

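Per the labels' protocols, complementary DNA was made by SMART-seq chemistry for very small RNA inputs, with neither molecular identifiers nor strand. The build mm9 and the tools TopHat, Cufflinks, DESeq and bcl2fastq 1.8.4 appear, without roles, in the submitters' processing notes. The read counter and annotation are not stated. Raw counts by gene symbol were deposited by the authors, with the same counts per library (0 differing). The authors also deposited their own comparison, with a mean signal of scaled counts, log2 fold changes with errors, the test's score and both raw and adjusted p-values. Its positive values stand for higher in mutant: all 272 genes called here have the same sign in it.

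The count test was that of edgeR 4.0.16 (R 4.3.3): filterByExpr (minimum count 10, total 15), TMM scaling, robust quasi-likelihood F test without covariates, Benjamini-Hochberg adjustment over all 12257 tested genes, threshold 0.05. Standard errors and 95% intervals come from the F statistic and its degrees of freedom. DESeq2 1.42.0 and limma 3.58.1 (voom with quality weights) were alternatives. Log2 CPM for patterns used a prior count of 2. Exon lengths are unions of GENCODE M21 basic exons (GRCm38), which served for lengths, overlaps and chromosomes only. The procedure was tested on simulated counts. No replicate pair was alike within sampling noise (chi-square over its degrees of freedom 28.1 to 136.9). The titles share replicate numbers without saying that they pair samples, so a block by replicate number stands among the alternatives.

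The members and lists were chosen with earlier results of these data known. Spi1 was read under its older symbol Sfpi1, and Etv3l was not found by symbol. Genes named are all members, all tested ETS genes and, of each list described, those past the threshold or of lowest p up to 3; others are stated as chosen later. Some genes that this rule names among the partners of ETS factors are not reported here. Markers of blood, mesenchyme and surface ectoderm were also listed. Of 3, 4 and 3 tested, none passed in edgeR, with 0, 2 and 1 at an unadjusted p under 0.05, against 16.2% of all tested genes. DESeq2 called 2 of the mesenchyme genes, Col3a1 and Twist1, among 821 genes in all.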

Additional observations from a re-analysis of the deposited data

How the results depend on the processing

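Over all tested genes, 272 were called, and another scaling, a changed filter or a dispersion without robust estimation gave 251 to 336. The count was 798 when crystallin share was a covariate, 821 with DESeq2 and 808 with limma voom, and 91 to 479 when single libraries were left out. Of the 10 members, 1 was called. It was 2, Etv1 and Etv5, with normalization without crystallin genes, no filter, the filter of 5 CPM in 3 libraries (which left 8 members to test, without Etv4 and Ets1), the crystallin covariate, DESeq2 and limma voom, and between 0 and 1 when libraries were left out. With the replicate number as a block, 122 genes and 0 members were called (Etv1 adjusted p = 0.0824, Etv5 0.0696 in edgeR), and the call of Junb was lost as well (1.63; adjusted p = 0.0776). The deviations of same-numbered libraries correlated at -0.28, -0.15 and 0.22. With so few libraries these values cannot tell whether the numbers pair the samples, and the labels do not say. None of the other ETS genes was called under any of the 15 alternatives. Signs turned for Ets1 (0.25 with the crystallin covariate; -1.96 to 0.18 over the leave-out fits), Elk4 (-0.052 with the covariate; -0.0497 to 0.209), Etv3 (0.0028 with the replicate block; -0.22 to 0.27) and Elf1 (-0.031 with the covariate; -0.16 to 0.37), none of them called. The cause was not tested. Depth limits Ets1 and Etv4, with 5 to 67 and 35 to 97 counts per library.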
